A study of Mus musculus with 24 samples.

Results

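Described here are 10 genes that sit downstream of AMPK-family kinases at the chromatin, namely the CREB coactivators Crtc1, Crtc2 and Crtc3, the class IIa histone deacetylases Hdac4, Hdac5 and Hdac7, the orphan nuclear receptors Nr4a1, Nr4a2 and Nr4a3, and the CREB-family gene Crem. They were chosen by name for these roles, with earlier results of these data known, out of 55487 genes in the deposited table. All 10 passed the filter on low counts that left 15828 genes for testing.

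Poly(A) RNA of mouse embryonic fibroblasts (MEFs), cultured connective tissue cells, was sequenced in 24 libraries. Wild-type (WT) cells and cells whose labels give an AMPK knockout (AMPK KO; the study's methods name a line without Prkaa1 and Prkaa2, the genes of both catalytic subunits of AMP-activated protein kinase) received the vehicle DMSO, MK-8722, a direct activator of AMPK, or torin1, an inhibitor of the kinase MTOR, with 4 libraries in each of the 6 groups. WT libraries were of passages 12 to 15 and AMPK KO libraries of passages 16 to 19, so that genotype, cell line and passage range cannot be told apart, and each genotype is represented by a single line. The duration of treatment before RNA was taken is not in the labels.

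CRTC proteins and class IIa HDACs are controlled in the same way: when AMPK or its relatives, such as the salt-inducible kinases, phosphorylate them, they are bound by 14-3-3 proteins and held in the cytoplasm, and when they are dephosphorylated they enter the nucleus. There, CRTC proteins join CREB on cyclic AMP response elements (CREs) and raise transcription, while class IIa HDACs sit on MEF2 factors and repress it. The NR4A receptors and Crem are rapidly induced genes of this pathway, and an internal promoter of Crem makes the short repressor ICER, which closes the loop. RNA counts measure the transcripts of these genes and not the phosphorylation or place of their proteins.

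The promoters of the NR4A genes are shown because all 3 genes differed between the genotypes, Nr4a3 on few counts and with overlapping libraries, and only 1 of the 3 moved with MK-8722. RefSeq promoter windows (GRCm38.p6) were at hand for 8 of the 10 genes, in 11 windows, and the 250 bases before the annotated start were searched on both strands for the full CRE (TGACGTCA), for its core (TGACG, which reads CGTCA from the opposite strand and lies inside the full CRE) and for the MEF2 motif. Capitals mark CRE cores in the NR4A sequences and the MEF2 motif in Hdac5, and the sequences run 5′ to 3′ on the strand of the gene.
Nr4a1: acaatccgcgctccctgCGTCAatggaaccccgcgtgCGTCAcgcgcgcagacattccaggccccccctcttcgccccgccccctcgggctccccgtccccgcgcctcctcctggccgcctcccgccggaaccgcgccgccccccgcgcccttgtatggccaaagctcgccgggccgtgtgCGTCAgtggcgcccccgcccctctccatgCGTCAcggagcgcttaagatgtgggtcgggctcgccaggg
Nr4a2: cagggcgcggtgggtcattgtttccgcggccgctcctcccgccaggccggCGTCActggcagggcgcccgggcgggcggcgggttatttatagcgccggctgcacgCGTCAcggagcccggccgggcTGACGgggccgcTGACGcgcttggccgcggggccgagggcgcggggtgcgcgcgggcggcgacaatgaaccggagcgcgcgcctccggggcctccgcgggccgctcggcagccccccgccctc
Nr4a3: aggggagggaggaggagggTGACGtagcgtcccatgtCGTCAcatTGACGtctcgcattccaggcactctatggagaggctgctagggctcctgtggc
Hdac5: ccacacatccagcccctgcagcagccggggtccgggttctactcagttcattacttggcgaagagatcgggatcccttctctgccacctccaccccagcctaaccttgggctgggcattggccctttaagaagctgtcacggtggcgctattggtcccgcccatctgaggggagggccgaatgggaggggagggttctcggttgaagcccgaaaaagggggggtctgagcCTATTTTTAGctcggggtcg
The Nr4a1 sequence is chr15:101266596-101266845 on the plus strand and belongs to a start inside the annotated gene, whose first base is at 101254269. The Nr4a2 sequence is chr2:57124004-57124253 on the minus strand. The Nr4a3 sequence is chr4:48045055-48045152 on the plus strand and ends where the GENCODE annotation puts the first exon. The Hdac5 sequence is chr11:102230173-102230422 on the minus strand.

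Each of the 3 NR4A windows held 4 CRE cores in its 250 bases. Of all 32851 windows, 17.8% held at least 1 core and 0.137% held 4 or more. The windows of Nr4a1, Nr4a2 and Nr4a3 were 74.4%, 80% and 63.6% G or C, and the shares over all windows are not matched for base content. These genes were also listed as genes of the CREB pathway. In Nr4a1 the cores began 233, 213, 69 and 40 bases before the start, all on the strand opposite to the gene. In Nr4a3, 3 of the 4 lie in the stretch shown and the other begins 147 bases before the RefSeq start, within the annotated exon. No NR4A window held the full CRE, which 1.55% of all windows held. Hdac4 had 2 cores, and Crtc1, Crtc3, Hdac5 and Hdac7 had none. The MEF2 motif was in the Hdac5 window, 20 bases before the start, and in 0.508% of all windows. A match describes letters in these windows and does not show that a factor was bound.

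**Figure D1:**
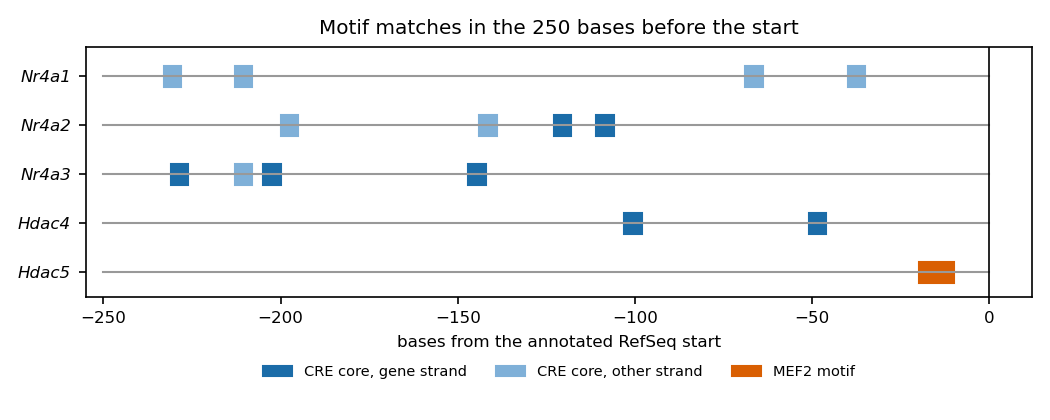
Positions of CRE cores (blue, dark on the strand of the gene and light on the other strand) and of the MEF2 motif (orange) in the 250 bases before the RefSeq start of 5 genes; the x axis is the distance from the start in bases. Nr4a1, Nr4a2 and Nr4a3 have 4 cores each, Hdac4 has 2, and Hdac5 has 1 MEF2 motif.

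Estimated counts summed to between 26900240 and 34192685 per library, RNA integrity numbers were 9.7 or above, and the passage 12 library deviated most from its group in each of the 3 WT treatments. Of the fibroblast markers, Vim was between 1944 and 6776 TPM (transcript abundance scaled to transcript length and library) and Fn1 between 446 and 1591 TPM, Col1a2 ranged from 3.36 to 1032 TPM and Col3a1 from 2.82 to 92.1 TPM, and Fap, Pdgfra and Thy1 stayed at or under 0.0792, 1.78 and 3.52 TPM. Of other cell types, Ptprc, Sox10 and Myod1, of blood, neural and muscle cells, were at 0.0705 TPM or less, although the neural gene Tubb3 was at 40.2 to 100.2 TPM, Cd68 of macrophages at 1.64 to 5.82 TPM, Epcam of epithelium at 0.354 to 4.67 TPM and Kdr of endothelium at 0.196 to 2.15 TPM. Prkaa1 was read at 65.6 to 84.5 CPM (counts scaled to library size with TMM factors) and Prkaa2 at 2.34 to 9.01 CPM in both genotypes together, so that these sums over whole genes do not check the knockout labels. In bulk RNA, fewer cells of a type and less RNA per cell cannot be told apart.

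Compared per length, in TPM summed over all annotated transcripts of a gene, coding or not, the genes spanned a wide range of levels. In WT DMSO, Hdac7 was the most abundant at 117 ± 6.41 TPM (SD, n = 4), followed by Crtc2 at 57.7 ± 1.71 and Hdac5 at 49.3 ± 3.13 TPM. Crtc1, Crtc3 and Hdac4 followed at 20.05, 18.9 and 16.4 TPM, and neighbours among these 3 overlapped between libraries. The NR4A genes were lower, with Nr4a1 at 10.4 ± 0.918 TPM and Nr4a2 at 5.74 TPM, a level that overlapped with Crem at 5.47 TPM. Nr4a3 was last at 0.351 ± 0.0952 TPM. Hdac5 passed Crtc2 in the other 5 groups, with overlapping libraries in WT torin1 and AMPK KO MK-8722, and in AMPK KO torin1 it had the highest mean, 101.7 TPM, although its libraries overlapped with those of Hdac7 at 97.5 TPM.

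**Figure D2:**
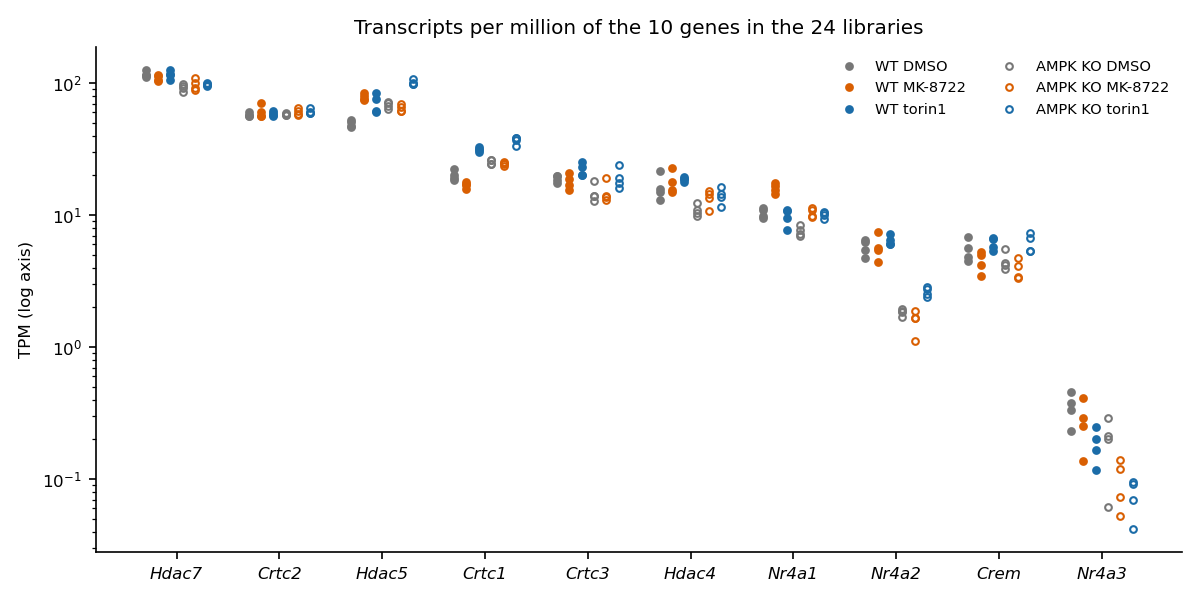
TPM of the 10 genes in the 24 libraries on a log axis; each point is 1 library, filled for WT and open for AMPK KO, grey for DMSO, orange for MK-8722 and blue for torin1. Mean levels in WT DMSO run from 117 TPM for Hdac7 to 0.351 TPM for Nr4a3.

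A gene was called where the adjusted p of edgeR's quasi-likelihood test was under 0.05 and the fold change at least 1.2. MK-8722 raised 2 of the 10 genes in WT, Hdac5 and Nr4a1, and lowered none, beside 15.6% of all tested genes called (9.96% higher and 5.6% lower). In AMPK KO it raised 1, Nr4a1, beside 1.46% of all genes (0.809% higher and 0.651% lower). Torin1 raised Crtc1 and Hdac5 in both genotypes. Its counts were 2 higher and 1 lower in WT, beside 47.6% of all genes (26.5% higher and 21.1% lower), and 4 higher in AMPK KO, beside 43.3% (25.8% higher and 17.5% lower). In DMSO, 1 of the 10 genes was higher and 7 were lower in AMPK KO than in WT, beside 56.8% of all genes (30.8% higher and 25.9% lower).

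The libraries of both groups did not overlap for 3 genes with MK-8722 in WT (25.5% of all genes) and for 2 in AMPK KO (11.7%). With torin1 they did not overlap for 2 genes in WT (51.8%) and 6 in AMPK KO (53.8%), and between the genotypes in DMSO for 9 (64%). The median log2 fold change of the 10 genes was -0.43 between the genotypes, beside 0.015 over all genes, and 0.27 with torin1 in AMPK KO, beside 0.055. In the other 3 of these comparisons it lay between -0.036 and 0.041. The drug comparisons within a genotype share their DMSO libraries, and the comparison between the genotypes uses those same libraries. These results are therefore not independent of each other.

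**Figure D3:**
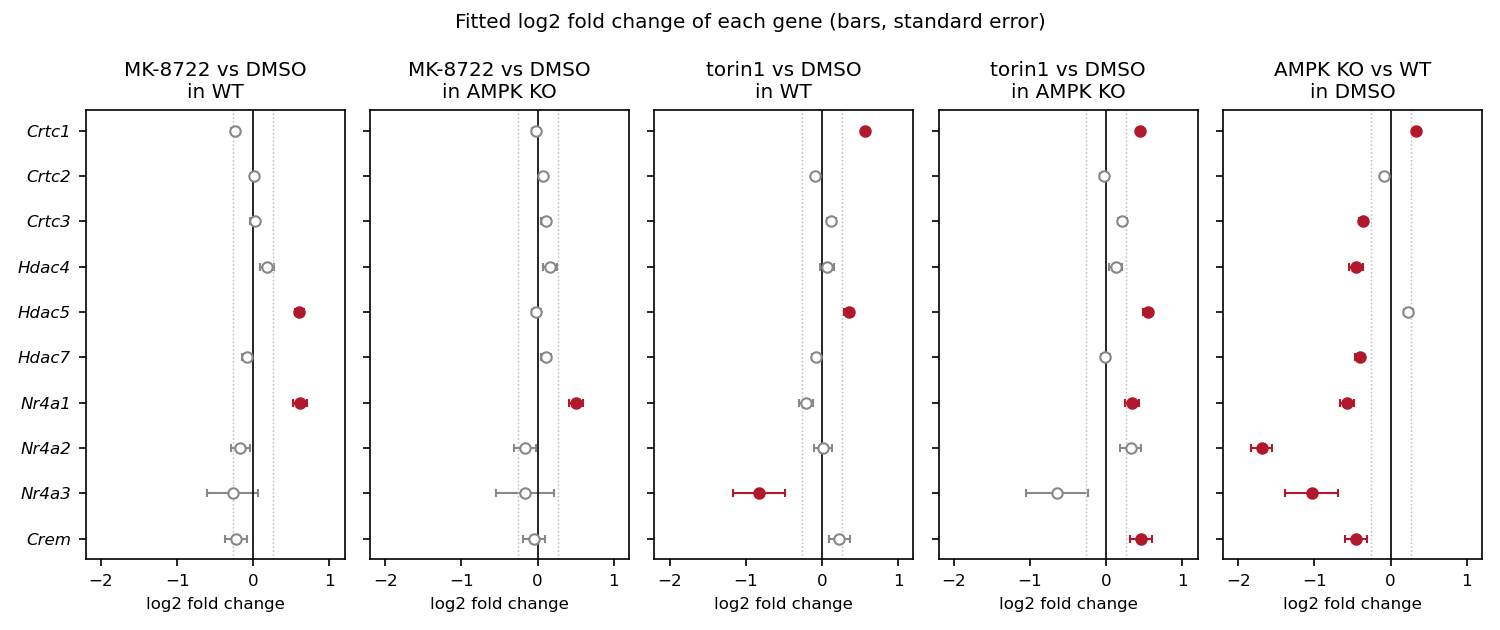
Fitted log2 fold change of the 10 genes in 5 comparisons, with standard errors as bars; red points were called, grey points were not, and dotted lines mark a fold change of 1.2. Nr4a1 is the gene called under MK-8722 in both genotypes, and Nr4a2 has the largest difference between genotypes, -1.69.

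Among the CRTC coactivators, Crtc1 (chr8:70382355-70439579, minus strand) moved with torin1 and Crtc2 was not called in any comparison. Crtc1 stood at 69.4, 67.4, 60.6 and 63.2 CPM in WT DMSO and at 99.7, 101.9, 93.8 and 90.5 CPM in WT torin1. In AMPK KO it stood at 82.4, 82.8, 82.5 and 81.2 CPM in DMSO and at 111, 112, 111 and 114 CPM in torin1. All torin1 libraries lay above all DMSO libraries of their genotype. The log2 fold change was 0.57 ± 0.045 (SE) in WT (adjusted p 8.98e-11) and 0.45 ± 0.045 in AMPK KO (adjusted p 6.5e-09), and the interaction of -0.12, with a 95% interval from -0.25 to 0.013, was not called.

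With MK-8722, Crtc1 went the other way in WT, to 55.6, 53.1, 56.6 and 54.9 CPM, below every WT DMSO library. That difference of -0.24 ± 0.046 on the log2 scale (adjusted p 0.000252) was 1.18-fold, short of the threshold on fold change, and it became a call at -0.29 without WT DMSO replicate 3. In AMPK KO, Crtc1 stood at 80.7, 82.1, 85.9 and 74.9 CPM with MK-8722, a range that spans the DMSO libraries, for -0.023 ± 0.045. The interaction of 0.22 ± 0.064 had an adjusted p of 0.0194 and likewise fell short of the fold change of 1.2. Torin1 and MK-8722 thus left Crtc1 at separate levels in WT, 0.81 ± 0.046 apart on the log2 scale (adjusted p 2.79e-13), in a comparison that called 2 of the 10 genes higher and 1 lower beside 45.6% of all genes (24.4% higher and 21.1% lower), with 4 of the 10 not overlapping beside 48.9%.

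Crtc1 was also the 1 gene of the 10 called higher in AMPK KO than in WT under DMSO, by 0.34 ± 0.045 (adjusted p 3.82e-07). The call was lost without WT DMSO replicate 3, at 0.26, and with an offset for transcript length, at 0.22, each a fold change under 1.2. Crtc3 (chr7:80586627-80688877, minus strand) went the other way, from 46.4, 45.2, 46.0 and 54.8 CPM in WT to 39.1, 36.1, 37.3 and 37.3 CPM in AMPK KO, or -0.36 ± 0.058 (adjusted p 5.32e-06). The highest of these WT values was the library of passage 12. Torin1 brought Crtc3 in AMPK KO to 45.3, 39.1, 45.7 and 43.3 CPM, each above the highest DMSO library, if barely so for the lowest, and the difference of 0.21 ± 0.058 (adjusted p 0.00319) was under 1.2-fold.

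Crtc2 (chr3:90254163-90264125, plus strand), the CRTC best known from the liver, kept between 77.8 and 94.7 CPM over all 24 libraries. Its fitted differences lay between -0.10 and 0.07 on the log2 scale over the 8 comparisons, none of them called, with the lowest adjusted p, 0.0412, between torin1 and MK-8722 in WT. The 95% interval of the MK-8722 difference ran from -0.078 to 0.10 for WT cells and from -0.020 to 0.16 for AMPK KO cells. In DMSO all 4 AMPK KO libraries, from 78.6 to 82.0 CPM, lay below all 4 WT libraries, from 84.2 to 87.5 CPM, for -0.088 ± 0.043 (adjusted p 0.0705).

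Hdac5 (chr11:102194432-102230166, minus strand) was the class IIa HDAC that responded to the drugs, and its response to MK-8722 differed between the genotypes. It stood at 109, 108, 99.3 and 95.5 CPM in WT DMSO and at 154, 154, 161 and 158 CPM in WT MK-8722. In AMPK KO it stood at 123, 126, 119 and 115 CPM in DMSO and at 115, 121, 128 and 113 CPM in MK-8722. The WT groups did not overlap, while those of AMPK KO lay over each other. The log2 fold change was 0.60 ± 0.060 in WT (adjusted p 3.53e-08) and -0.017 ± 0.059 in AMPK KO, with a 95% interval from -0.14 to 0.11. The interaction itself, -0.62 ± 0.084 (adjusted p 1.21e-05), was called, in a comparison that called 1 of the 10 genes lower beside 12.6% of all genes (5.05% higher and 7.56% lower).

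Within passages, Hdac5 was higher with MK-8722 than with DMSO in 4 of 4 WT passages, by 0.50 to 0.69 on the log2 scale, and in 2 of 4 AMPK KO passages, with values from -0.091 to 0.025. Torin1 raised it in both genotypes. In WT torin1 it stood at 140.0, 148, 120.4 and 118 CPM, for a log2 fold change of 0.35 ± 0.060 (adjusted p 1.59e-05). In AMPK KO torin1 it stood at 179.9, 180.0, 174 and 169 CPM, for 0.54 ± 0.059 (adjusted p 2.84e-08). Neither torin1 group overlapped with its DMSO group, and the interaction of 0.19 ± 0.084 (adjusted p 0.163) was not called. WT torin1 was below WT MK-8722 by 0.25 ± 0.059 (adjusted p 0.000791), without overlap and under 1.2-fold, and this became a call without WT MK-8722 replicate 1, at -0.27, or WT torin1 replicate 2, at -0.32.

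The other class IIa HDACs differed between the genotypes and were not called under a drug. Hdac7 (chr15:97792664-97844502, minus strand) fell from 292, 278, 279.6 and 265 CPM in WT DMSO to 217, 225, 192 and 206 CPM in AMPK KO DMSO, for -0.41 ± 0.061 (adjusted p 1.79e-06). Some Hdac7 exons overlap those of Slc48a1 on the opposite strand, which had up to 2948 counts in a library, and whether counting used strand is not given in the sources used here. Hdac4 (chr1:91928779-92195699, minus strand) stood at 46.3, 43.8, 42.6 and 58.5 CPM in WT DMSO and at 34.2, 33.7, 35.3 and 36.7 CPM in AMPK KO DMSO, for -0.45 ± 0.088 (adjusted p 6.89e-05). Both differences were without overlap between the genotypes.

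Hdac4 had its highest WT value in the library of passage 12 under each treatment, at 58.5 CPM in DMSO, 66.0 in MK-8722 and 53.5 in torin1. Its difference with MK-8722 in WT, 0.18 ± 0.087 (adjusted p 0.13), was not called with all libraries and was called at 0.30 (adjusted p 0.00518) without WT DMSO replicate 4, the passage 12 library. Within passages it was higher with MK-8722 in 4 of 4 in each genotype, by 0.14 to 0.22 (WT) and by 0.084 to 0.22 (AMPK KO). Hdac5 went against Hdac4 and Hdac7, being 0.23 ± 0.060 higher in AMPK KO than in WT DMSO (adjusted p 0.00146), without overlap but under 1.2-fold. It became a call with library size alone as the scaling (0.37), with a length offset (0.37) or with at least 10 counts in every library (0.28).

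**Figure D4:**
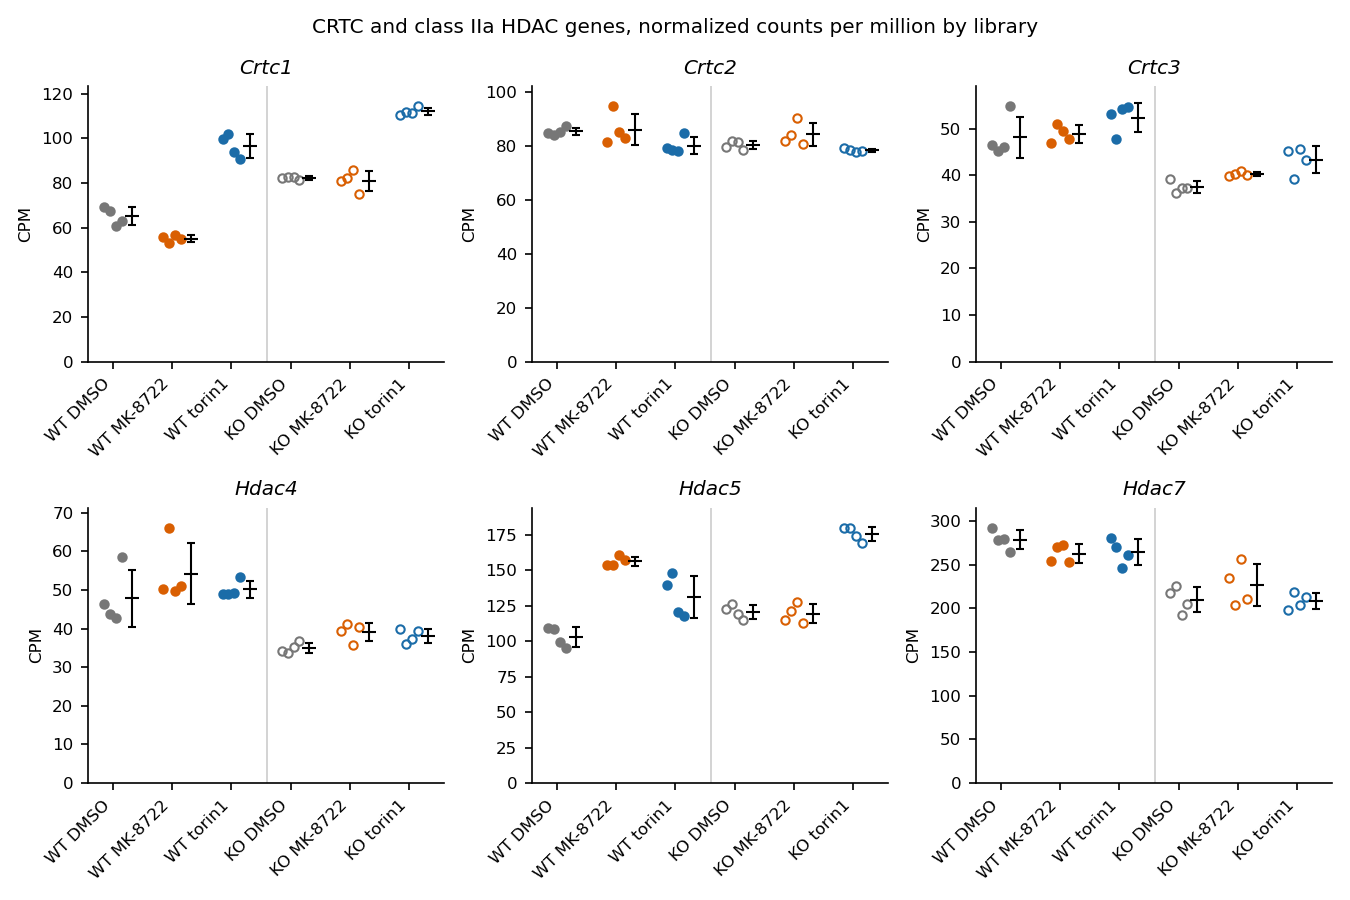
TMM-scaled CPM of the CRTC and class IIa HDAC genes; points are the 4 libraries of a group, filled for WT and open for AMPK KO, and black bars are the mean and SD. Hdac5 with MK-8722 lies between 154 and 161 CPM in WT, above WT DMSO, and between 113 and 128 CPM in AMPK KO, over the range of AMPK KO DMSO.

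Nr4a1 (chr15:101254269-101274795, plus strand), a receptor without a known required ligand that is induced within minutes of a stimulus, was the 1 gene of the 10 that MK-8722 raised in both genotypes. It stood at 17.0, 15.7, 14.8 and 17.9 CPM in WT DMSO and at 22.97, 26.4, 27.0 and 23.98 CPM in WT MK-8722. In AMPK KO it stood at 11.1, 12.6, 10.3 and 10.3 CPM in DMSO and at 16.2, 14.6, 17.5 and 14.5 CPM in MK-8722. Every MK-8722 library lay above every DMSO library of its genotype, and the AMPK KO MK-8722 libraries reached the level of WT DMSO. The log2 fold change was 0.62 ± 0.089 in WT (adjusted p 9.57e-06) and 0.51 ± 0.092 in AMPK KO (adjusted p 0.00393), and within passages it was positive in 4 of 4 in each genotype, from 0.49 to 0.87 for WT and from 0.48 to 0.55 for AMPK KO. The interaction was -0.11 ± 0.13, with a 95% interval from -0.38 to 0.16, which holds both a smaller and a larger rise in AMPK KO than in WT.

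Torin1 did not move Nr4a1 the same way in both genotypes. WT torin1 libraries stood at 14.0, 15.6, 11.5 and 15.4 CPM and overlapped with DMSO, for -0.21 ± 0.091 (adjusted p 0.0479) that was under 1.2-fold. AMPK KO torin1 libraries stood at 14.3, 13.6, 13.8 and 14.1 CPM, above all 4 DMSO libraries, with a log2 fold change of 0.34 ± 0.092 (adjusted p 0.00306). With torin1 the mean level was thus 14.1 ± 1.93 CPM in WT cells (SD, n = 4) and, in the AMPK KO line, 13.95 ± 0.331 CPM. The interaction of 0.55 ± 0.13 (adjusted p 0.00825) was called, in a comparison that called 1 of the 10 genes higher beside 7.12% of all genes (4.19% higher and 2.93% lower). The rise in AMPK KO fell under 1.2-fold without AMPK KO DMSO replicate 3 (0.26) or replicate 4 (0.25). The WT difference became a call, from -0.27 to -0.26, without WT DMSO replicate 3, WT torin1 replicate 2 or WT torin1 replicate 4. With any 1 library left out it shrank at most to -0.096, with adjusted p up to 0.355. Within WT passages it ran from -0.57 to -0.00075. The interaction ran from 0.39 to 0.62 with 1 library left out and stayed called, with adjusted p up to 0.0495. In WT, torin1 and MK-8722 differed by -0.83 ± 0.090 (adjusted p 2.02e-08).

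Nr4a2 (chr2:57106830-57124003, minus strand), best known from dopamine neurons, had the largest difference between the genotypes. It stood at 11.4, 9.36, 10.5 and 12.5 CPM in WT DMSO and at 3.37, 3.30, 3.54 and 3.33 CPM in AMPK KO DMSO, for -1.69 ± 0.13 (adjusted p 3.03e-11). All 12 AMPK KO libraries, from 2.49 to 4.79 CPM, lay below all 12 WT libraries, from 7.05 to 12.6 CPM. MK-8722 gave -0.17 in each genotype (SE 0.12 in WT and 0.14 in AMPK KO), neither called. The WT value moved with the passage 12 library of that group, since without WT MK-8722 replicate 2, at 12.6 CPM, it was -0.32 (adjusted p 0.0411) and called. With torin1 in AMPK KO, Nr4a2 stood at 4.18, 4.11, 3.82 and 4.79 CPM, above every DMSO library, for 0.32 ± 0.14 and an adjusted p of 0.0546. With passage as a replicate block the adjusted p was 0.0183, and in WT torin1 gave 0.016 ± 0.12.

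Nr4a3 (chr4:48045153-48086447, plus strand), the least abundant of the 10, had 4 to 38 counts per library, so that its differences have wide intervals. It stood at 0.842, 0.512, 0.576 and 1.19 CPM in WT DMSO and at 0.196, 0.324, 0.549 and 0.450 CPM in AMPK KO DMSO. These groups overlapped, and the log2 fold change of -1.04 ± 0.35 (adjusted p 0.0111) was called. It was -0.76 (adjusted p 0.0726) without WT DMSO replicate 4, the highest library. In WT torin1 Nr4a3 stood at 0.363, 0.698, 0.414 and 0.288 CPM, overlapping with DMSO, and the call of -0.83 ± 0.34 (adjusted p 0.0413) was lost when any 1 of 5 libraries was left out (WT DMSO replicate 1 or 4, or WT torin1 replicate 1, 3 or 4), with adjusted p from 0.0745 to 0.203. MK-8722 gave -0.27 ± 0.33 in WT and -0.16 ± 0.39 in AMPK KO, with 95% intervals from -0.97 to 0.43 and from -0.97 to 0.65.

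In DMSO, the NR4A genes were thus each called lower in AMPK KO, by 0.57 ± 0.092 for Nr4a1 (adjusted p 6.36e-06), 1.69 for Nr4a2 and 1.04 ± 0.35 for Nr4a3 (adjusted p 0.0111) on the log2 scale. For Nr4a3 the groups overlapped, and the call was lost without WT DMSO replicate 4. Under MK-8722 the NR4A genes did not move together, since Nr4a1 rose in both genotypes while neither Nr4a2 nor Nr4a3 was called and their fitted values were below 0.

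**Figure D5:**
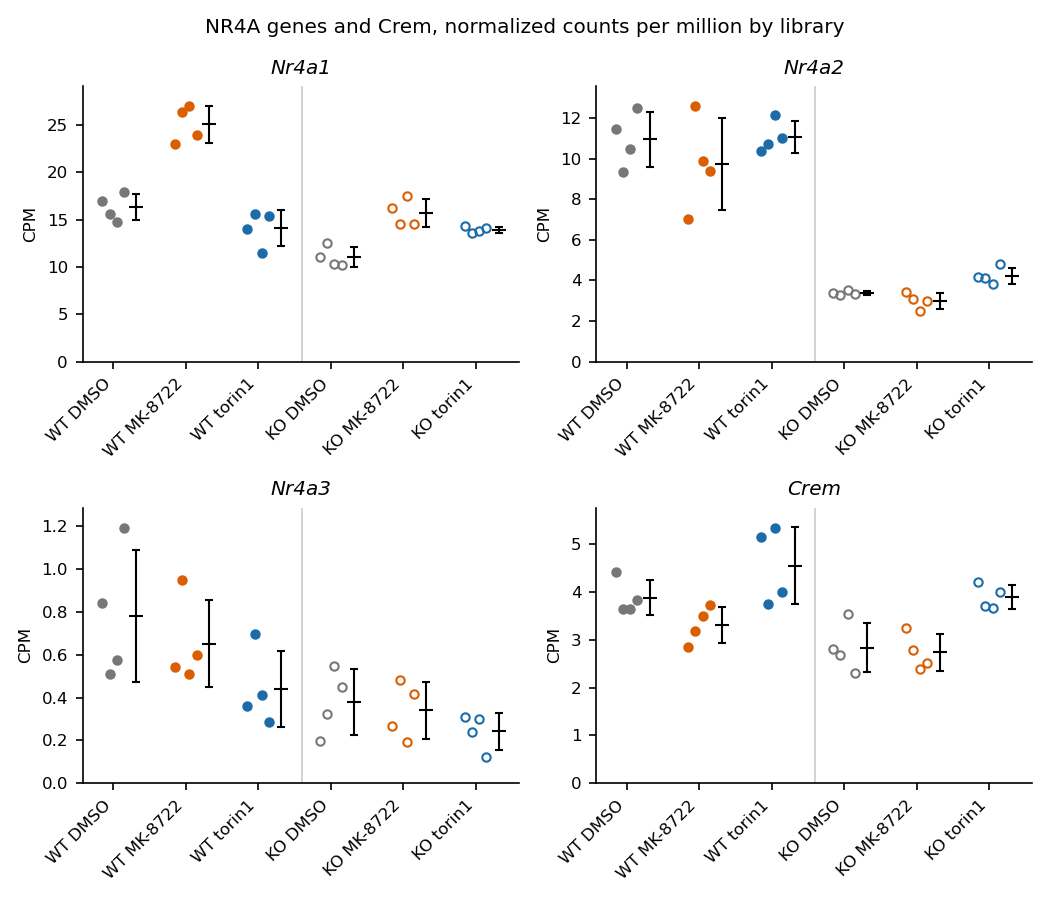
TMM-scaled CPM of the NR4A genes and Crem; points are the 4 libraries of a group, filled for WT and open for AMPK KO, and black bars are the mean and SD. Nr4a1 lies between 22.97 and 27.0 CPM with MK-8722 in WT and between 14.5 and 17.5 CPM in AMPK KO, each above its DMSO group, and Nr4a2 is at 4.79 CPM or less in every AMPK KO library.

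Crem, whose long products activate or repress CREs and whose ICER products repress them, was lower in AMPK KO than in WT under DMSO, and torin1 raised it in AMPK KO. It stood at 4.42, 3.66, 3.64 and 3.83 CPM in WT DMSO and at 2.81, 2.69, 3.54 and 2.31 CPM in AMPK KO DMSO, without overlap, for a log2 fold change of -0.45 ± 0.14 (adjusted p 0.00662). With torin1 in AMPK KO it stood at 4.21, 3.72, 3.67 and 3.998 CPM, above all DMSO libraries, for 0.46 ± 0.14 (adjusted p 0.00761). That call was lost without AMPK KO DMSO replicate 4, at 0.32 (adjusted p 0.0754). This difference and the one between the genotypes use the same AMPK KO DMSO libraries. In WT, torin1 gave 0.23 ± 0.14 against DMSO (adjusted p 0.158), with overlapping libraries and no call, and 0.46 ± 0.14 against MK-8722 (adjusted p 0.00685), where torin1 libraries, from 3.74 to 5.35 CPM, lay above MK-8722 libraries, from 2.84 to 3.72 CPM. MK-8722 gave -0.23 ± 0.14 in WT and -0.05 ± 0.14 in AMPK KO, neither called.

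Crem transcripts were split by their start, since ICER starts within the gene. Of 39 transcripts, 13 started past the middle of the gene and were taken as the internal class, and these had 7.19 to 50.4 estimated counts per library. The internal class was at 27.2, 31.8, 18.6 and 37.3 counts in WT DMSO and at 14.8, 13.7, 7.19 and 19.9 counts in AMPK KO DMSO, for -1.17 ± 0.34 (adjusted p 0.00367). The upstream class gave -0.27 ± 0.21 (adjusted p 0.257) in the same comparison. Whether the classes differed was tested on the share of Crem TPM in the internal class, which was 38.1% ± 14.0 in WT DMSO and 23.5% ± 11.4 in AMPK KO DMSO (SD, n = 4). An exact two-sided permutation test of this share gave p = 0.171, where 0.0286 is the smallest that 4 against 4 libraries allow, so a shift between the classes was not detected. The other 5 of the 6 comparisons of this share gave exact p from 0.629 to 0.886. With the border moved further towards the 3′ end of the gene, where 7 transcripts were internal, the exact permutation p was again 0.171 between the genotypes and from 0.314 to 0.971 in the others.

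A pair of annotated transcripts made up most of Nr4a1, Nr4a1-202 with 50.9% and Nr4a1-201 with 45.9% of its TPM on average over the 24 libraries. Crtc1-201 made up 80.1% of Crtc1 and Crtc3-201 77.6% of Crtc3, while the leading transcript of Hdac5, Hdac5-204, held 28.9%. Crtc2-201, the only transcript of Crtc2 annotated as protein-coding, held 43.1% of its TPM. The order of genes by summed TPM, as for Crtc2 and Hdac5, thus need not be that of their coding transcripts. These shares are estimates of Salmon from short reads.

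Among the 22 tested of 26 listed CREB and CRTC target genes, 6 were higher and 4 lower with MK-8722 in WT, beside 15.6% of all genes called, and 2 were higher in AMPK KO, beside 1.46%. This list and those that follow were written with earlier results of these data known. Their counts beside the shares over all genes are thus descriptions and no test of enrichment. The largest rises in WT were of Gem, a small GTP-binding protein, by 1.24 ± 0.14 on the log2 scale, and of Ptgs2, the inducible cyclooxygenase, by 1.14 ± 0.18. The largest fall was of Pde4b, a cyclic AMP phosphodiesterase, by 3.65 ± 0.15, to a mean of 0.926 CPM from 11.7 CPM, and Egr1 fell by 0.59 ± 0.15. The median over the tested targets was -0.06, beside -0.0017 over all genes. In AMPK KO the called pair was Areg, an EGF receptor ligand (0.87 ± 0.17), and Atf3 (0.56 ± 0.13), neither of which was called in WT.

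Of the same targets, 9 were higher and 7 lower with torin1 in WT (47.6% of all genes called) and 5 higher and 7 lower in AMPK KO (43.3%), with Atf3 falling most in each, by 2.23 ± 0.15 and 2.04 ± 0.15. The largest rises were of Vgf (1.56 ± 0.35) and Ppargc1a (1.45 ± 0.28) in WT and of Irs2 (1.13 ± 0.069) and Pde4b (0.72 ± 0.090) in AMPK KO. Between the genotypes in DMSO, 7 were higher and 9 lower in AMPK KO (56.8% of all genes called), from Pde10a at 6.43 ± 0.17 to Bdnf at -2.81 ± 0.13. Pde10a had at most 6 counts in a WT DMSO library, so it passed the filter on low counts through other groups. The size of its fold change is therefore not well measured. Of the CREB family and its coactivators, none of Creb1, Atf1, Crebbp and Ep300 was called with MK-8722 in either genotype. Over all genes, 15.6% were called with MK-8722 in WT and 1.46% in AMPK KO. Atf1 fell with torin1 in both genotypes, by 0.53 ± 0.034 and 0.26 ± 0.033, and Creb1 rose with it in AMPK KO (0.28 ± 0.054). In DMSO, 3 of these 4 genes were higher and 1 lower in AMPK KO than in WT (56.8% of all genes called). In each interaction 1 of the 4 was called higher, beside 12.6% of all genes called with MK-8722 and 7.12% with torin1.

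On the side of the class IIa HDACs, 2 of 8 tested MEF2 factors and target genes were higher and 2 lower with MK-8722 in WT, beside 15.6% of all genes called, and none was called in AMPK KO, beside 1.46%. The higher ones were the factors Mef2c (0.59 ± 0.19) and Mef2a (0.50 ± 0.086), and the lower ones the targets Klf2 (-2.66 ± 0.21) and Klf4 (-0.60 ± 0.18). All 4 had a called interaction, of -1.06 for Mef2c, -0.52 for Mef2a, 2.70 for Klf2 and 0.78 for Klf4. The interaction uses the same WT libraries that picked these 4 genes, so their interaction calls are no separate result. The share over all genes, 12.6%, is not limited to genes called in WT and is not a like measure for them. With torin1, 1 of the 8 was higher and 2 lower in WT (47.6% of all genes called) and 2 higher and 3 lower in AMPK KO (43.3%). In DMSO, where 56.8% of all genes were called, 5 were lower in AMPK KO, with Mef2c at -1.75 ± 0.21 and Mef2a at -1.51 ± 0.090, and 2 were higher, Slc2a4 (2.37 ± 0.28) and Mef2b (1.98 ± 0.46). Among the 4 listed partners, 2 were lower in AMPK KO than in WT under DMSO. Hdac9, the other class IIa deacetylase, had at most 32 counts in any library and was lower in AMPK KO (-3.06 ± 0.43), and Hdac3 was lower there too (-0.46 ± 0.035). With MK-8722, 1 of the 4 was lower in WT (15.6% of all genes called) and none was called in AMPK KO (1.46%). In the MK-8722 interaction 1 was called higher (12.6%).

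Of 21 genes of kinases, phosphatases and 14-3-3 proteins that act on CRTC and class IIa HDAC proteins, 4 were higher and 10 lower with torin1 in WT (47.6% of all genes called) and 5 higher and 9 lower in AMPK KO (43.3%), with medians of -0.22 and -0.12 beside 0.036 and 0.055 over all genes. The 14-3-3 genes Ywhaz and Ywhag fell most, by 0.87 ± 0.053 and 0.82 ± 0.045 in WT and by 0.66 ± 0.053 and 0.66 ± 0.045 in AMPK KO. The kinase genes Prkd2 (0.63 ± 0.067) and Sik1 (0.60 ± 0.049) rose most in WT, and Prkd2 (0.47 ± 0.066) and Sik3 (0.44 ± 0.062) in AMPK KO. In the torin1 interaction 1 of the 21 was called higher and 1 lower (7.12% of all genes called). The lower one was Sik1, itself a CREB target, at -0.72 ± 0.068. With MK-8722, 2 of the 21 fell in WT (15.6% of all genes called), Sfn (-0.70 ± 0.18) and Ywhaq (-0.27 ± 0.032), and none was called in AMPK KO (1.46%). In DMSO, where 56.8% of all genes were called, 3 were higher in AMPK KO, led by Mark1 (2.01 ± 0.11), and 5 lower, led by Sik2 (-1.24 ± 0.056).

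Genes whose levels followed those of the low members most closely were named over the 24 libraries, after the mean of each genotype was taken off. Soat1 had the highest Pearson correlation with Nr4a1, 0.90, followed by Mafg at 0.88 and Cops7a at 0.87, among 10543 genes. Cnot1, Mepce and Atf7ip led for Nr4a2, at 0.81, 0.80 and 0.80. Isg15, Dhdds and Cdkn1a led for Nr4a3, at 0.74, 0.73 and 0.73, and Tnrc6b, Cep350 and Pknox1 for Crem, at 0.86, 0.86 and 0.84. These are descriptions of libraries that share treatments and passages.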

How the data were processed

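Reads went through the authors' nf-core/rnaseq run, with STAR as aligner, GRCm38 as genome and molecular identifiers taken into account, as the study's methods state. The submitters' processing notes also name Salmon. The deposited gene table holds estimated counts that are not normalized. For each library, the deposited transcript table holds estimated counts and TPM. Gene counts equalled the sums over transcripts.

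Libraries were grouped by their labels, and totals per library ranged from 26900240 to 34192685. Estimated counts were rounded, filtered with filterByExpr, scaled with TMM factors and fitted over all 24 libraries with edgeR 4.0.16 in R 4.3.3 (robust quasi-likelihood test, two-sided), with Benjamini-Hochberg adjustment over 15828 genes. Standard errors were derived from the fitted log2 fold change and the F statistic of its test. The 95% intervals were built from them with the residual degrees of freedom of the fit. The p-values come from the test itself, so that an interval and its p-value can differ slightly. TPM were summed per gene and described only. The 2 Crem classes replaced Crem in a separate fit. The 4 libraries of each group were of 4 different passages of 1 line, so p-values measure the spread between passages of that line.

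The 10 genes, the lists and the tests were chosen with earlier results of these data known. Named were these 10 genes, Prkaa1 and Prkaa2 as a check of the labels, from each list the called genes with the largest changes (2 in each direction at most), and for the NR4A genes and Crem the 3 genes of highest correlation. Protein sequences, and promoters of Crtc2 and Crem, were not analysed here. A result for 1 listed gene is not reported here. The fit was tested on simulated counts. Alternatives, among them DESeq2 1.42.0, other scalings, filters and blocks, each library left out in turn and, chosen after seeing the data, the fit without the passage 12 libraries, are given in the closing section. Gene positions are from a GRCm38 annotation (GENCODE).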

Additional observations from a re-analysis of the deposited data

Results flagged for a closer look

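In 4 of the 60 gene and group pairs, 1 library lay far from the other 3 by Dixon's criterion, which sets the gap to the nearest library against the range of the group. These were Crtc2 at 84.9 CPM in WT torin1 (the others from 78.0 to 79.1), Crtc3 at 54.8 CPM in WT DMSO (45.2 to 46.4), Hdac4 at 66.0 CPM in WT MK-8722 (49.6 to 51.1) and Hdac4 at 53.5 CPM in WT torin1 (48.9 to 49.1). All 4 values were high and came from the passage 12 library of their group. Chance gives such a gap in about 1 in 20 groups.

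The response to a drug differed between the genotypes for 3 genes by the test of the interaction (edgeR's quasi-likelihood test, AMPK KO minus WT on the log2 scale). For Hdac5 with MK-8722 the interaction was -0.62 (adjusted p 1.21e-05), for Nr4a1 with torin1 it was 0.55 (adjusted p 0.00825), and for Crtc1 with MK-8722 it was 0.22 (adjusted p 0.0194), the last under the fold change of 1.2.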

How the results depend on the processing

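Of 1902 values of single genes under other settings, 1829 stayed on their side of the threshold, 43 were no longer called and 30 became called, and none changed direction while called. A fold change of at least 1.5 left 0 of the 10 genes called with MK-8722 in AMPK KO, 1 with torin1 in WT, 0 with torin1 in AMPK KO, 2 between the genotypes and 0 in the torin1 interaction. A test against a fold change of 1.2 left 0, 1 and 2 in the first 3 of these and 0 in the torin1 interaction. The adjusted p alone gave 5 between torin1 and MK-8722 in WT and 2 in the MK-8722 interaction. Leaving out each library in turn gave 1 to 2 genes in the MK-8722 interaction (2 without WT DMSO replicate 3) and 2 to 5 with torin1 in AMPK KO (2 without AMPK KO DMSO replicate 4, 5 without AMPK KO torin1 replicate 3). Nr4a1 with MK-8722 kept its call without each library, at 0.56 to 0.67 (WT) and 0.45 to 0.58 (AMPK KO), and Nr4a2 between the genotypes stayed at -1.81 to -1.64.

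Nr4a3 with torin1 in WT was not called by DESeq2 (adjusted p 0.0619), with library size alone (0.0743), with the compared groups alone (0.0517) or without the passage 12 libraries (-0.39, 0.382). Without those libraries Nr4a3 between the genotypes had an adjusted p of 0.0506. Library size alone as the scaling moved the median of all genes to 0.14 and 0.12 with torin1 in WT and AMPK KO, to 0.15 between the genotypes and to 0.12 between torin1 and MK-8722, and the share of calls that were higher to 67.5%, 68.1%, 67.4% and 65.4%. It ended the calls of Crem (-0.31) and Crtc3 (-0.22) between the genotypes. An offset for transcript length ended those of Crem with torin1 in AMPK KO (0.35) and against MK-8722 (0.37). Without a filter 31103 genes were tested and the percent called fell to between 0.595 with MK-8722 in AMPK KO and 31.2 between the genotypes. With the adjusted p alone, 27.9% of all genes passed with MK-8722 in WT, and with a fold change of 1.5, 5.21%. The cause was not tested.

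Replicate numbers did not pair the libraries (4 of 24 pairs within a genotype correlated above 0.1). With the replicate number as a replicate block the counts of the 10 genes were the same in all 8 comparisons, 2 with MK-8722 in WT and 1 in AMPK KO among them. Libraries of the same passage correlated above 0.1 in 15 of 24 pairs, short of every pair. With passage as a replicate block, 4.50% of all genes were called with MK-8722 in AMPK KO and 11.8% in the torin1 interaction, and 5 of the 10 genes with torin1 in AMPK KO. Passages did not cross the genotypes, so that comparison has no passage block. Nr4a3 had 4 to 38 counts and internal Crem transcripts 7.19 to 50.4 per library, so depth limits both.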
